A study of Mus musculus with 15 samples.

Results

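The 90 protein-coding genes whose symbols name a cytosolic ribosomal protein were described in 15 RNA-seq libraries of mouse primary lung fibroblasts. They were taken by symbol from the 18078 genes in the files: names that begin with Rpl or Rps and a number, plus Rpsa, Rplp0, Rplp1 and Rplp2, without the kinase genes whose names hold a k. The rule uses symbols and biotype, not expression values. The 90 genes comprise 43 proteins of the large subunit, 31 of the small subunit and 3 of the acidic stalk, which are called the core (77 genes) below. The remainder are 6 paralogs, 5 genes whose symbols carry the pseudogene suffix -ps, and Rps19bp1 and Rps23rg1, which match by name and are not ribosomal proteins of the core.

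The cells came from wild-type BALB/cJ mice and were held for 20 h in 1 of 5 conditions, with 3 libraries each: IL-33 with IL-13 and IL-17A together (the triple combination), IL-33 with IL-13, IL-33 with IL-17A, IL-33 alone, and no cytokine. IL-33 is an alarmin released by damaged cells, IL-13 the main effector cytokine of type 2 immunity, and IL-17A that of type 17 responses. All treated groups share IL-33, so IL-13 or IL-17A without it was not analysed here. The labels give neither the animals or cultures behind each library nor a preparation date, so p-values measure the spread between libraries, which may be technical.

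A cytosolic ribosome carries 1 copy of nearly every ribosomal protein, and the genes for them are transcribed at high and closely matched levels. Most of their mRNAs begin with a terminal oligopyrimidine (TOP) tract, a run of C and U after the cap through which mTORC1 sets their translation together. The subunits are assembled in the nucleolus and nucleus with many assembly factors that are not part of the finished ribosome. In lung fibroblasts, growth and matrix secretion both draw on this machinery.

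The deposited values are TPM, transcripts per 1000000, scaled by the length of the whole gene span with its introns, from an estimated 10.5 to 15.1 M reads per library (M, 1000000). All 14 fibroblast markers were present, and summed to 11238 to 11841 TPM with the triple combination, 13031 to 13389.7 TPM with IL-33 and IL-13, 13273 to 14772 TPM with IL-33 and IL-17A, 14854 to 15721 TPM with IL-33 and 16929.6 to 18333 TPM untreated. All 14 macrophage markers were present too, and summed to 17726 to 18602 TPM with the triple combination, 18384 to 18595 TPM with IL-33 and IL-13, 19126 to 20353 TPM with IL-33 and IL-17A, 19234 to 19419 TPM with IL-33 and 19745 to 20145 TPM untreated, above the fibroblast markers in each group. Since TPM here depends on the span of each gene, the sums of 2 lists do not rank their amounts of RNA. Of 8 epithelial markers 5 were in the files and summed to 4.22 to 10.5 TPM, and 5 of 7 endothelial markers summed to 5.31 to 7.69 TPM. The part of other cells in the results below was not tested, and in bulk RNA fewer cells of a type and less RNA per cell cannot be told apart. A set of 6 libraries stood apart by the share of TPM from the 13 mitochondrially encoded protein genes, at 3.50 to 3.87%, against 4.77 to 6.13% in the other 9. They were replicate 1 of the triple combination, all 3 replicates of IL-33 with IL-13, and replicates 2 and 3 of IL-33 with IL-17A. These 6 libraries are not a group of the labels, and values with a term for them are given beside the main results below.

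The bases around the transcription start are shown for 10 members on which the results turn, because TOP mRNAs start inside a pyrimidine run. Each window covers the 15 bases before and 15 after the RefSeq start on assembly GRCm38.p6 (the mm10 build), read 5′ to 3′ on the gene's strand. Capitals mark every occurrence of 4 words, namely CTTTC, the word CTCTT, the word CTTTT and the word CTTCC, which were searched on the transcript strand and may overlap. The first 5 genes were called higher with IL-33 and IL-13, and include the leaders by size. Rpl28 lies at chr7:4792950-4792979 on the plus strand, Rpl35 at chr2:39005117-39005146 on the minus strand, Rps16 at chr7:28350674-28350703 on the plus strand, Rpl38 at chr11:114668565-114668594 on the plus strand, and Rpl22l1 at chr3:28805493-28805522 on the plus strand.
Rpl28: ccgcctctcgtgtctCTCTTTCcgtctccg
Rpl35: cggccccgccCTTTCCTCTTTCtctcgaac
Rps16: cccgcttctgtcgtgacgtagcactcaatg
Rpl38: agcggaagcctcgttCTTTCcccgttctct
Rpl22l1: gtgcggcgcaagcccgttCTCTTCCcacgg

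The next 5 are stalk genes, a paralog and small subunit genes. Rplp2 and Rpl36al were also called higher with IL-33 and IL-13, Rps3a1 and Rps27 were called lower, and Rplp0 was not called. Rplp2 lies at chr7:141447636-141447665 on the plus strand, Rplp0 at chr5:115559452-115559481 on the plus strand, Rpl36al at chr12:69184053-69184082 on the minus strand, Rps3a1 at chr3:86142654-86142683 on the minus strand, and Rps27 at chr3:90213634-90213663 on the minus strand.
Rplp2: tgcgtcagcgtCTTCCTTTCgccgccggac
Rplp0: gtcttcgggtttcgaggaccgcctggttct
Rpl36al: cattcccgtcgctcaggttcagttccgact
Rps3a1: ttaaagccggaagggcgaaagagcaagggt
Rps27: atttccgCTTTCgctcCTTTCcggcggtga
Of the 90 members, 65 were matched in the RefSeq promoter table, 57 of them core genes. One of the 4 pyrimidine words stood in the start window of 28 of these 57 core genes (49.1%), against 4780 of 27025 genes with a RefSeq promoter (17.7%). A gene counted once if any of its promoters held the word. On either strand the counts were 36 (63.2%) and 8999 (33.3%). The word CCGGAAG, written as an ETS-type site and searched on both strands over 300 bases, stood in 24 of the 57 (42.1%), against 2683 of the 27025 genes (9.93%). The words occur among members with opposite directions, as Rpl28 and Rps27 show, and a match is a description of letters only.

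By TPM over the gene span, the core had a median of 959 and ran from 21.4 (Rpl26) to 4157 (Rplp1). The 5 highest members were Rplp1, the stalk protein P1, at 4157 TPM, Rpl41, the smallest ribosomal protein, at 3433 TPM, Rpl10, which joins the large subunit late in its maturation, at 2417 TPM, Rps18-ps6 at 2269 TPM and Rpl8 at 2200.2 TPM. The 5 lowest of those tested were Rpl39l at 1.62 TPM, Rpl36a-ps1 at 5.77, Rpl26 at 21.4, Rpl9-ps6 at 29.1 and Rpl10-ps3 at 59.7. Rps23rg1 averaged 0.0812 TPM and was the only member below the expression filter of 1 TPM in 3 libraries, which leaves 89 tested.

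Because the span includes introns, TPM ranks genes partly by intron length. On the scale of estimated reads per kb of annotated transcript per 1000000 reads, the core was more even, with a median of 296 and a range of 16.9 (Rpl26) to 928 (Rplp1). The upper quartile was 1.96 times the lower one on this scale, and 2.65 times on the TPM scale. Rplp1 was followed by Rps12 at 628 and Rpl41 at 622 on the transcript scale. The transcript taken for each gene was the longest of its best-ranked annotated ones, which need not be the main one in these cells. It had 5179 bases for Rps15a and 3706 for Rps20, against a core median of 886, and their values on this scale were 46.5 and 70.7. Each core gene rested on a median of 3169 estimated reads per library, and Rpl26 had the fewest, 123.

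Core genes varied little between libraries. The mean SD of log2(TPM + 1) within a group had a median of 0.0588 over the core, and ran from 0.0256 to 0.279. The ratio of the highest to the lowest of the 15 libraries had a median of 1.21. Rpl5, which carries 5S rRNA into the large subunit, lay between 489 and 536 TPM in every library, and Rps12 between 1898 and 2092 TPM, a ratio of 1.10 in both. Rpl29 had the widest ratio, 2.16, with 207 TPM in untreated replicate 3 and 447 TPM in triple replicate 1.

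As a whole, the 90 genes took 8.03 to 8.98% of TPM. Their share averaged 8.51 ± 0.249% with the triple combination, 8.94 ± 0.0709% with IL-33 and IL-13, 8.52 ± 0.394% with IL-33 and IL-17A, 8.11 ± 0.0850% with IL-33, and 8.28 ± 0.206% untreated (SD, n = 3 each). The 6 libraries of low mitochondrial share held the 6 highest values, 8.67 to 8.98%, against 8.03 to 8.51% in the other 9. In the triple combination the shares were 8.79% in replicate 1 and 8.35 and 8.38% in replicates 2 and 3, and with IL-33 and IL-17A they were 8.07% in replicate 1 and 8.82 and 8.67% in replicates 2 and 3. The split within both groups followed the mitochondrial share. As a share of estimated reads, the 90 genes averaged 2.35% with the triple combination, 2.47% with IL-33 and IL-13 and 2.32% with IL-33 and IL-17A. The averages were 2.15% with IL-33 and 2.11% untreated, so untreated lay below IL-33 on this scale and above it by TPM. The 6 libraries again held the highest values, 2.36 to 2.48%, against 2.09 to 2.30% in the other 9. Pseudogenes of ribosomal proteins, 109 by symbol, took 0.557 to 0.692% of TPM, and 78 mitochondrial ribosomal protein genes 0.464 to 0.541%.

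**Figure D1:**
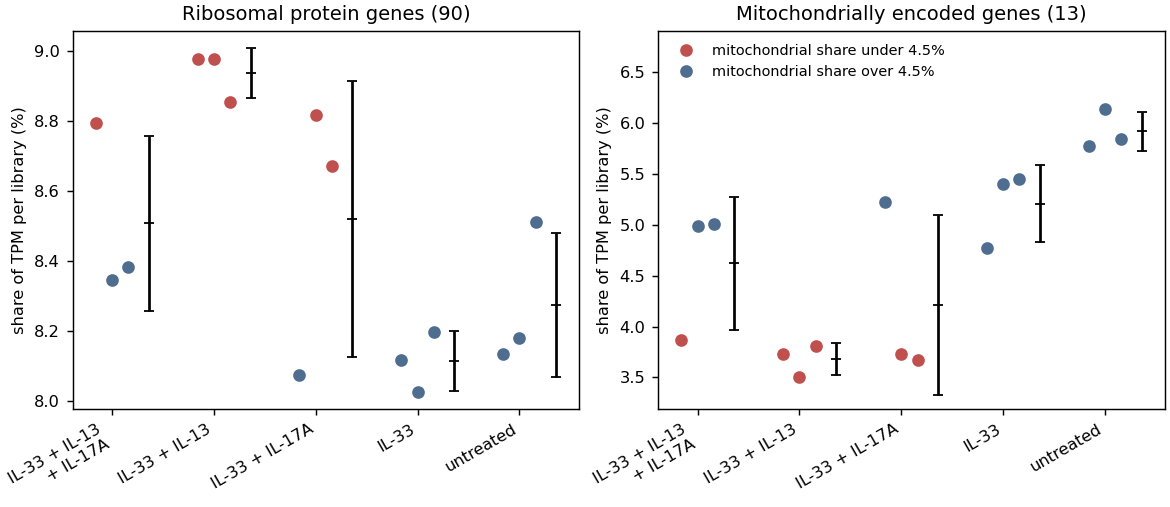
Share of TPM (%) per library of the 90 ribosomal protein genes (left) and of 13 mitochondrially encoded protein genes (right), by group, with the group mean and SD beside the points. The 6 libraries with a mitochondrial share under 4.5% (red) have ribosomal protein shares of 8.67 to 8.98%, above the other 9 (blue, 8.03 to 8.51%).

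With IL-33 and IL-13 against untreated cultures, of 89 members 34 rose and 7 fell at an adjusted p under 0.05 (limma on log2(TPM + 1), Benjamini-Hochberg over 13887 genes), where 49.6% of all tested genes were called, 14.5% higher and 35.1% lower. By class, 18 of 43 large subunit genes rose and 2 fell, 9 of 31 small subunit genes rose and 4 fell, 2 of 3 stalk genes rose, 3 of 6 paralogs rose, and 2 of 5 -ps genes rose and 1 fell. Without IL-33 and IL-13 replicate 2 there were 19 calls in all, where 41.4% of all genes were called. The median member change was 0.10 on the log2 scale, against -0.12 over all tested genes. With median-ratio scaling, which brings the median of all genes near 0, 63 members rose and 2 fell, where 24.4% of all genes rose. With a term for the 6 libraries, 2 rose and none fell by limma, and the median member change was 0.01. The background with that term was 25.6%, with 9.27% higher and 16.3% lower, and the 2 members were Rpl36al and Rplp0.

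Rpl28, a large subunit protein, and Rpl35, which sits beside the exit of the nascent chain, led the core. Rpl28 had 1375, 1376 and 1314 TPM with IL-33 and IL-13, against 984, 968 and 805 TPM untreated. The groups did not overlap, and the means of 1355 ± 35.4 TPM with IL-33 and IL-13 and 919 ± 98.9 TPM untreated (SD, n = 3 each) differed by 0.57 ± 0.18 (log2 ± SE, limma adjusted p = 0.023). Rpl35 had 594, 604 and 561 TPM with IL-33 and IL-13, against 425, 412 and 352 TPM untreated, a change of 0.57 ± 0.16 (adjusted p = 0.0115). Its 3 treated values likewise all lay above the untreated ones. With the term for the 6 libraries the changes were -0.015 (adjusted p = 0.955) for Rpl28 and 0.08 (adjusted p = 0.716) for Rpl35.

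Rps16, a protein of the small subunit head, had 1299.7, 1333 and 1195 TPM with IL-33 and IL-13, against 1001, 946 and 926 TPM untreated (log2 change 0.41 ± 0.12, adjusted p = 0.0147). Rps19, mutated in human Diamond-Blackfan anaemia, had 582, 608 and 555 TPM with IL-33 and IL-13, against 479, 463 and 435 TPM untreated (0.34 ± 0.11, adjusted p = 0.0185). Neither gene's groups overlapped. Rplp1 of the stalk had 4922, 4838 and 4592 TPM with IL-33 and IL-13, against 3839, 3694 and 3788 TPM untreated (0.34 ± 0.09, adjusted p = 0.00567). Rpl13 (0.35, adjusted p = 0.00561), Rpl41 (0.32, adjusted p = 0.00637) and Rpl38 (0.35, adjusted p = 0.0155), a large subunit protein known in mouse for its role in axial skeleton patterning, rose as well. None of these 6 kept its call with the term for the 6 libraries, where their changes were 0.01 to 0.08.

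The largest increase among the 34 was that of Rpl22l1, the paralog of Rpl22. It had 309, 288 and 236 TPM with IL-33 and IL-13, against 173, 156 and 202 TPM untreated, a change of 0.65 ± 0.22 (adjusted p = 0.0296). Its groups did not overlap. With the term for the 6 libraries it was 0.04 ± 0.23 (adjusted p = 0.919). Rps18-ps5 averaged 629 TPM with IL-33 and IL-13 and 461 TPM untreated (0.46, adjusted p = 0.022, and 0.04 with the term, adjusted p = 0.864).

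Among the 7 members that fell with IL-33 and IL-13 were Rpl10-ps3 and several core genes. Rps27, a zinc finger protein of the small subunit, had 1380.2, 1338 and 1463 TPM with IL-33 and IL-13, against 1657, 1719 and 1828 TPM untreated (-0.32 ± 0.06, adjusted p = 0.00131, and -0.17 with the term, adjusted p = 0.11). All 3 treated values lay below the untreated ones. Rps6, the target of S6 kinase (-0.18, adjusted p = 0.0226), Rpl10 (-0.14, adjusted p = 0.00895), Rps7, known to bind MDM2 (-0.13, adjusted p = 0.042), and Rps3a1 (-0.10, adjusted p = 0.0122) fell by less. These 4 lie near the all-gene median of -0.12: with median-ratio scaling Rpl10, Rps7 and Rps3a1 took positive values of 0.011 to 0.056, and Rps6 stayed negative. None of the 4 was called with the term for the 6 libraries, where their values were -0.09 to -0.0012. Rpl10-ps3 had 47.0, 35.5 and 44.9 TPM with IL-33 and IL-13, against 73.7, 65.0 and 65.0 TPM untreated (-0.67 ± 0.18, adjusted p = 0.00811, and -0.17 with the term, adjusted p = 0.53).

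**Figure D2:**
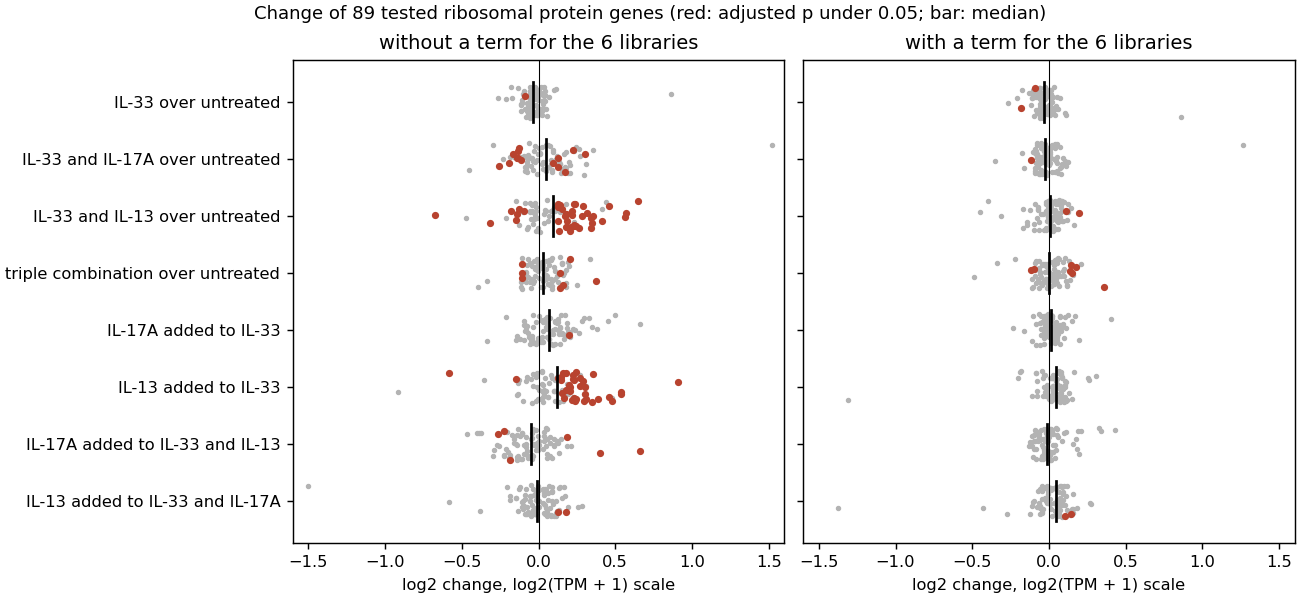
Log2 change of each of the 89 tested members (points) in 8 comparisons, on the log2(TPM + 1) scale, with the median as a bar and members at an adjusted p under 0.05 in red, without (left) and with (right) a term for the 6 libraries of low mitochondrial share. With IL-33 and IL-13 over untreated, 41 members are called on the left and 2 on the right.

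Libraries in the set and outside it can also be compared inside 2 groups, whose 3 libraries had the same treatment. Within IL-33 and IL-17A, replicates 2 and 3 minus replicate 1 gave a median core difference of 0.10 on the log2 scale, with 53 of 77 genes positive, against -0.06 over all genes. Within the triple combination, replicate 1 minus replicates 2 and 3 gave a median of 0.05 with 46 positive, against -0.05. The difference of IL-33 and IL-13 over untreated had a core median of 0.10 with 48 positive. Across the 77 core genes, that difference correlated with the one inside IL-33 and IL-17A at Pearson's r = 0.87 (Spearman's rho = 0.85) and with the one inside the triple combination at r = 0.86 (rho = 0.82). No library stands on both sides of these correlations, genes are not independent replicates, and over all 13887 genes r was 0.25 and 0.19.

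The 2 differences inside the groups correlated with each other at r = 0.70 over the core, and were unlike for some genes. Inside IL-33 and IL-17A and inside the triple combination they were 0.49 and 0.10 for Rps19 and 0.47 and 0.09 for Rps20. For Rps16 they were 0.55 and 0.25, and for Rpl38 0.08 and 0.46. Rpl28, where they were close, shows the pattern library by library. It had 1369.7, 953 and 873 TPM with the triple combination and 871, 1309 and 1285 TPM with IL-33 and IL-17A, so that replicate 1 was the high one in one group and the low one in the other. The differences inside the groups were 0.59 and 0.57, close to the 0.57 of IL-33 and IL-13 over untreated. Rps28, a small subunit protein, had 237, 174 and 151 TPM with the triple combination and 142, 203 and 237 TPM with IL-33 and IL-17A, differences of 0.54 and 0.62, against 0.44 for IL-33 and IL-13 over untreated (adjusted p = 0.104). At the other end, Rps27 had 1490.2, 1653 and 1698 TPM with the triple combination and 1529, 1408 and 1407 TPM with IL-33 and IL-17A, differences of -0.17 and -0.12. Since all IL-33 and IL-13 libraries are among the 6 and no untreated or IL-33 library is, treatment and set cannot be told apart inside those comparisons, and the term rests on the differences inside these 2 groups.

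**Figure D3:**
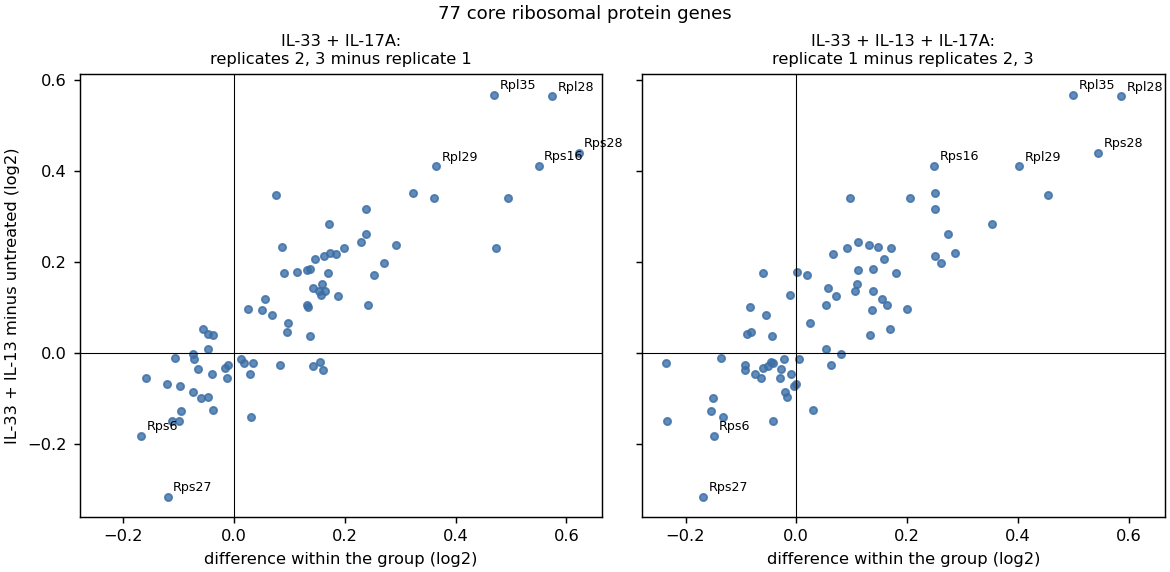
Each point is 1 of the 77 core genes: log2 difference between replicates inside IL-33 and IL-17A (left, x axis) or inside the triple combination (right, x axis) against the log2 difference of IL-33 and IL-13 over untreated (y axis). Rpl28, Rpl35 and Rps28 lie at the upper right and Rps27 at the lower left in both panels (r = 0.87 and 0.86, 77 genes).

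**Figure D4:**
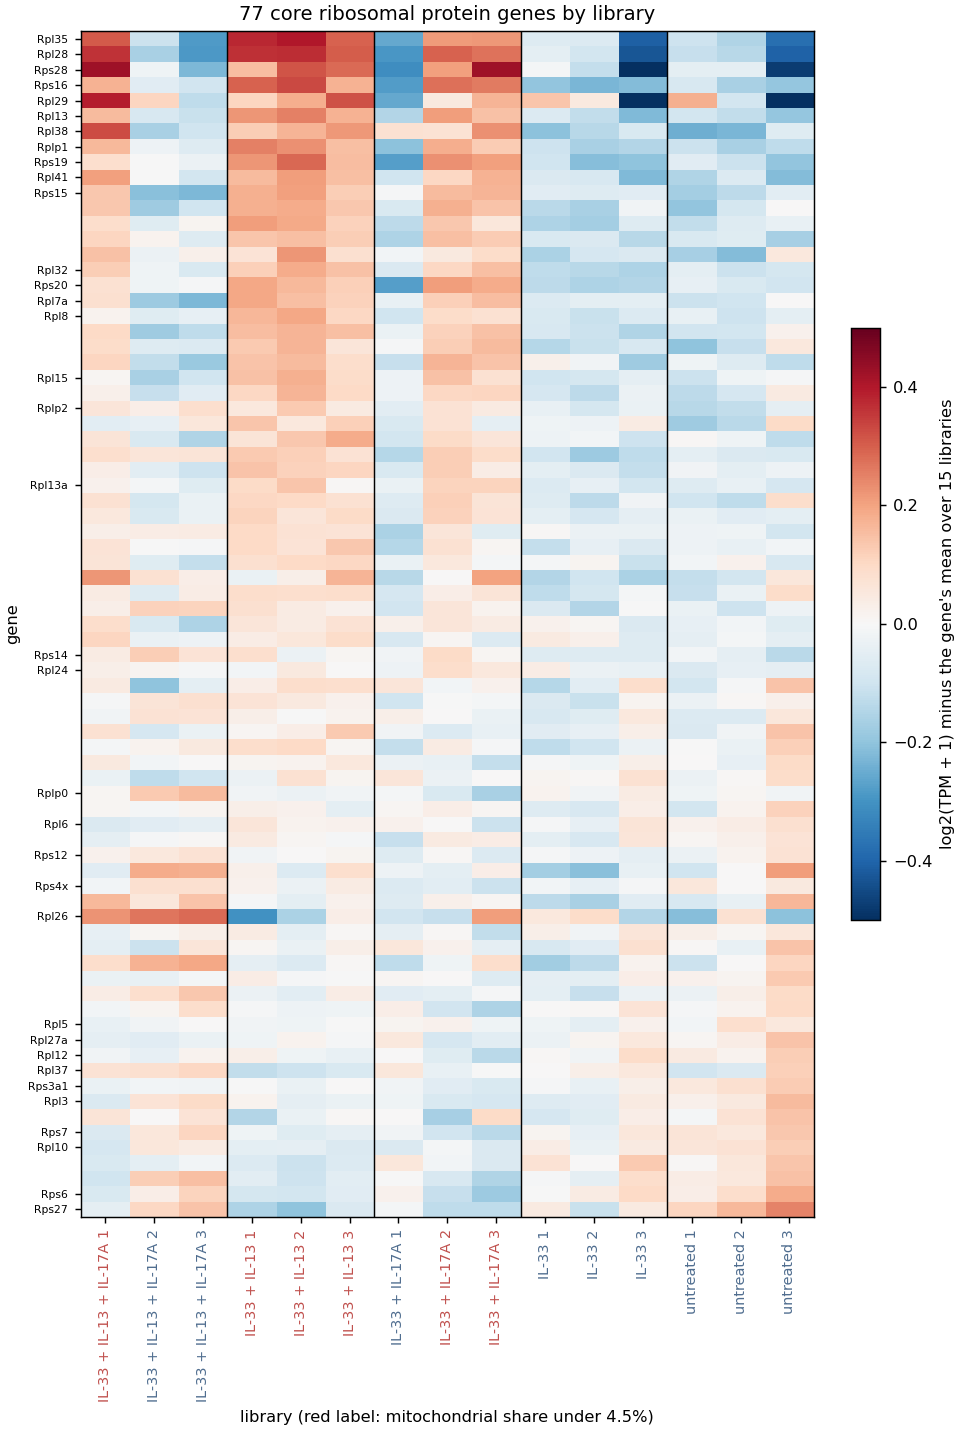
Log2(TPM + 1) of the 77 core genes minus each gene's mean over the 15 libraries (colour scale capped at 0.5 on either side), with libraries in columns by group and genes ordered by their change with IL-33 and IL-13 over untreated (labels on most genes described in the text). The 6 libraries with red labels share the high values of the upper genes, and triple replicates 2 and 3 and IL-33 and IL-17A replicate 1 do not.

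GC content went in part with the order of genes by that change. GC was taken from the same long annotated transcripts as above, and ran over the core from 41.3% (Rps20) to 60.8%. It correlated with the change of IL-33 and IL-13 over untreated at r = 0.44 over the 77 genes, against 0.17 over all genes with a value. In the 20 core genes of lowest GC the median change was -0.03, and in the 19 of highest GC it was 0.23. Inside IL-33 and IL-17A the same genes gave medians of 0.00055 and 0.17. The correlation of GC with that difference was r = 0.30 over the core and 0.22 over all genes, with Spearman's rho of 0.36 and 0.32. GC also correlated over the core with differences that hold no library of the set. For IL-33 over untreated r was 0.37, against 0.06 over all genes. For the triple libraries outside the set over untreated r was 0.30, against -0.03 over all genes. There the same genes gave medians of -0.03 and 0.09. Inside the triple combination r was 0.35 over the core and 0.29 over all genes, and Spearman's rho was 0.30 and 0.46. With a GC trend removed, 40 members rose and 3 fell with IL-33 and IL-13 over untreated, where 46.4% of all genes were called. With the GC trend removed and the term for the 6 libraries 1 member rose, where 26.7% were called. The part of GC in the changes was not tested further.

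Adding IL-13 to IL-33 compares IL-33 and IL-13 with IL-33 alone, and 34 members rose and 2 fell, where 32.4% of all genes were called, 10% higher and 22.4% lower. This comparison has its IL-33 and IL-13 libraries in common with the one above. By class, 17 large subunit genes rose and 1 fell, 11 small subunit genes rose, and 2 stalk genes and 3 paralogs rose. Rpl22l1 had 309, 288 and 236 TPM with IL-33 and IL-13, against 139.6, 143 and 156 TPM with IL-33 (0.91 ± 0.22, adjusted p = 0.00927). Rps16 averaged 1276 TPM with IL-33 and IL-13 and 914 TPM with IL-33 (0.48, adjusted p = 0.0116), Rpl35 changed by 0.54 (adjusted p = 0.0242), Rpl28 by 0.54 (adjusted p = 0.0427), Rps19 by 0.39 (adjusted p = 0.0153) and Rplp1 by 0.35 (adjusted p = 0.00941). Rps20, which lies in the small subunit head, averaged 760.2 TPM with IL-33 and IL-13 and 616 TPM with IL-33 (0.30, adjusted p = 0.0307). Rpl10-ps3 (-0.58, adjusted p = 0.0263) was among those that fell. With the term for the 6 libraries no member was called by limma, where 10.2% of all genes were, and 5 members had an unadjusted p under 0.05, where 23.1% of all genes had. Without IL-33 and IL-13 replicate 2 there were 14 calls, where 22.2% of all genes were called. With median-ratio scaling 57 rose and 1 fell, where 16.6% of all genes rose. With voom on estimated reads 57 rose and none fell, where 34.1% of all genes were called.

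IL-33 with IL-17A against untreated cultures gave 6 members higher and 8 lower, where 37.7% of all genes were called, 10.7% higher and 27% lower. The members that rose were Rpl38 (0.30, adjusted p = 0.0386), Rps15 (0.22, adjusted p = 0.0462), Rpl36al (0.17, adjusted p = 0.0173), Rpl13a, known in human and mouse cells for a role outside the ribosome in interferon-induced translational silencing (0.13, adjusted p = 0.0402), Rplp2 (0.12, adjusted p = 0.0279) and Rpl24 (0.09, adjusted p = 0.0476). Those that fell were Rps27 (-0.26, adjusted p = 0.00629), Rps6 (-0.20, adjusted p = 0.021), Rps7 (-0.17, adjusted p = 0.0151), Rpl3, which helps form the peptidyl transferase centre (-0.14, adjusted p = 0.0436), Rpl10 (-0.14, adjusted p = 0.0146), Rps3a1 (-0.14, adjusted p = 0.00229), Rpl12 (-0.13, adjusted p = 0.034) and Rps4x (-0.11, adjusted p = 0.017). The all-gene median was -0.09. With scaling that left out the mitochondrially encoded genes, 2 members rose and 12 fell, so the split between directions depends on the scaling. The share of all genes called is not given for that setting. With median-ratio scaling 32 members rose and 1 fell, where 17.8% of all genes rose, and Rps4x took a value of 0.011. Without replicate 1, the library outside the set of 6, 31 members rose and 14 fell, where 43.9% of all genes were called, and without replicate 3 there were 2 calls, where 27.6% were. With the term for the 6 libraries only Rps3a1 was called (-0.11, adjusted p = 0.0159), where the background was 24.9%.

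The triple combination against untreated cultures gave 5 members higher and 3 lower, where 42.7% of all genes were called, 12.6% higher and 30.1% lower. In this comparison 2 of the 3 treated libraries lie outside the set, and the fit restricted to the 9 libraries outside the set gave 8 higher and 3 lower, where 36.1% of all genes were called. A term for the 6 libraries gave 5 higher and 2 lower, where 42.9% were called. Scaling that left out the mitochondrially encoded genes gave 4 higher and 6 lower, and the share of all genes called is not given for that setting. With median-ratio scaling 36 rose and none fell, where 20.4% of all genes rose. The all-gene median was -0.10 on the TPM scale, and the member median 0.03.

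Rplp2, the stalk protein P2, had 669, 657 and 681 TPM with the triple combination, against 583, 589 and 623 TPM untreated (0.16 ± 0.04, adjusted p = 0.00606). The groups did not overlap, and the change was 0.14 with the term for the 6 libraries (adjusted p = 0.0117). Rplp0, the stalk base to which P1 and P2 bind, had 1623, 1766 and 1799 TPM with the triple combination, against 1589, 1624 and 1591 TPM untreated. Replicate 1 lay just below the highest untreated library and replicates 2 and 3 above them, and the change of 0.11 did not pass the threshold (adjusted p = 0.0539), while with the term it was 0.15 ± 0.03 (adjusted p = 7.48e-04).

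Rpl36al, the paralog of Rpl36a, had 865, 782 and 801 TPM with the triple combination, against 705, 686 and 726 TPM untreated (0.21 ± 0.05, adjusted p = 0.00498, and 0.18 with the term, adjusted p = 0.00927). It was higher without overlap in each group that received IL-13 or IL-17A, with 875, 814 and 895 TPM with IL-33 and IL-13 (0.29 ± 0.05, adjusted p = 5.54e-04, and 0.20 with the term, adjusted p = 0.044) and 776, 807 and 804 TPM with IL-33 and IL-17A. Its partner Rpl36a averaged 603 TPM with IL-33 and IL-13 and 582 TPM untreated (0.05, adjusted p = 0.572).

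Rpl26, which is known to bind p53 mRNA in human cells, had 25, 25.7 and 26.1 TPM with the triple combination, against 18.2, 22.4 and 18.3 TPM untreated (0.37 ± 0.11, adjusted p = 0.0175). All 3 triple values lay above the untreated ones, and the change was 0.36 with the term (adjusted p = 0.0352). When the TPM of its annotated copies was added to its own, the change was 0.50 with an adjusted p of 0.0687. Rps14, deleted in the human 5q- syndrome, had 91.0, 96.4 and 92.8 TPM with the triple combination, against 87.7, 85.8 and 80.5 TPM untreated (0.14 ± 0.04, adjusted p = 0.02, and 0.14 with the term, adjusted p = 0.0303).

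Rps3a1, a small subunit protein at the mRNA exit side, was lower in all 4 treated groups. It had 936, 949 and 946 TPM with the triple combination, 958, 937 and 961 TPM with IL-33 and IL-13, 947, 923 and 909.8 TPM with IL-33 and IL-17A, 955, 935 and 978 TPM with IL-33, and 994, 1013 and 1046 TPM untreated. No treated library reached the lowest untreated one. These 4 comparisons share the untreated libraries. The changes were -0.11 with the triple combination (adjusted p = 0.00696), -0.10 with IL-33 and IL-13, -0.14 with IL-33 and IL-17A and -0.09 with IL-33 (adjusted p = 0.0477). Under the term for the 6 libraries they were -0.10, -0.06, -0.11 and -0.09 in the same order, and that of IL-33 and IL-13 was not called (adjusted p = 0.225). With median-ratio scaling the value was positive for IL-33 and IL-13 (0.056) and for the triple combination (0.025), so the direction depends on the scaling there. Rpl27a (-0.11, adjusted p = 0.0496) and Rpl6 (-0.11, adjusted p = 0.0367) fell with the triple combination and also took positive values, 0.024 and 0.029, with median-ratio scaling. With the term for the set both were -0.09, with adjusted p of 0.0959 and 0.0676.

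**Figure D5:**
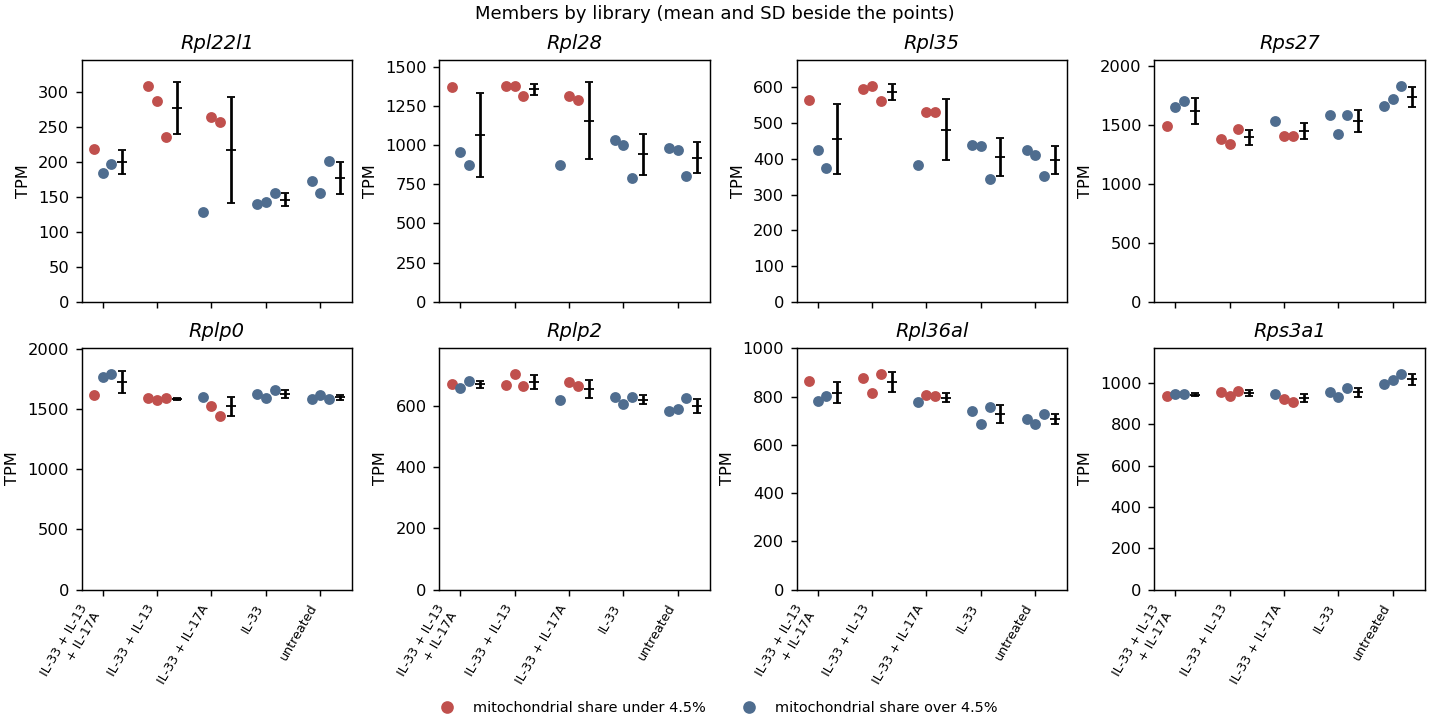
TPM per library of 8 members in the 5 groups, with the group mean and SD beside the points, and libraries with a mitochondrial share under 4.5% in red. Rpl28 and Rpl35 split inside the triple combination and inside IL-33 and IL-17A by that share. Rpl22l1 splits less inside the triple combination (219 against 185 and 197 TPM) than inside IL-33 and IL-17A (265 and 257 against 129 TPM). Rps3a1 is lower in every treated library, on either side of that share, than in the untreated ones (994 to 1046 TPM).

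IL-33 alone gave 1 member call. Rps3a1 was the only member called, 1 of 89, where 14.2% of all genes were called, 5.92% higher and 8.28% lower. At an unadjusted p under 0.05 there were 5 members, where 26.4% of all genes were. The median member change was -0.04 and that of all genes -0.05. When the 6 libraries had a term, 2 members were called, where 19.3% of all genes were. The second was Rps27, which had 1585, 1423 and 1586 TPM with IL-33, against 1657, 1719 and 1828 TPM untreated (-0.18 ± 0.05 with the term, adjusted p = 0.025). Its groups did not overlap.

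When IL-17A was added to IL-33, 1 member rose, where 9.76% of all genes were called, 3.54% higher and 6.22% lower. Rpl32 of the large subunit had 721, 814 and 841 TPM with IL-33 and IL-17A, against 693, 688 and 679.9 TPM with IL-33 (0.20 ± 0.06, adjusted p = 0.0438). With the term it was 0.08 (adjusted p = 0.224), no member was called by limma, where 6.01% of all genes were, and 2 had an unadjusted p under 0.05, where 15.9% of all genes had. Without IL-33 and IL-17A replicate 1, 22 members rose and 3 fell, where 22% of all genes were called.

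When IL-17A was added to IL-33 and IL-13, 3 members rose and 3 fell, where 7.45% of all genes were called, 3.4% higher and 4.05% lower. Rpl10-ps3 (0.66, adjusted p = 0.045), Rpl26 (0.40, adjusted p = 0.0499) and Rpl37 (0.19, adjusted p = 0.0382) rose. Rpl37 had 709, 713 and 725 TPM with the triple combination, against 619, 628 and 639 TPM with IL-33 and IL-13, and its groups did not overlap. Rpl7a (-0.26, adjusted p = 0.0466), Rpl15 (-0.22, adjusted p = 0.0219) and Rpl8 (-0.18, adjusted p = 0.0354) fell. With median-ratio scaling 3 rose and 1 fell, where 8.39% of all genes were called. Without triple replicate 1 the counts were 5 higher and 17 lower, where 14.1% of all genes were called. With the term for the 6 libraries no member was called by limma, where 4.08% of all genes were, and 10 had an unadjusted p under 0.05, where 15.1% of all genes had. Voom on estimated reads, without the term, gave 5 higher and 7 lower, where 11.9% were called.

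Adding IL-13 to IL-33 and IL-17A raised 2 members and lowered none, where 15.8% of all genes were called, 6.7% higher and 9.14% lower. The count was 2 as well when the 6 libraries had a term, where 17.6% were called. Rplp0 had 1623, 1766 and 1799 TPM with the triple combination, against 1601, 1531 and 1442 TPM with IL-33 and IL-17A (0.18 ± 0.04, adjusted p = 0.0118, and 0.14 with the term, adjusted p = 0.00369). Rps4x had 1293, 1378 and 1381 TPM with the triple combination, against 1245, 1259 and 1211 TPM with IL-33 and IL-17A (0.12 ± 0.03, adjusted p = 0.02, and 0.11 with the term, adjusted p = 0.0273). Neither gene's groups overlapped. The count was 12 without IL-33 and IL-17A replicate 1 and also without triple replicate 1, where 17.6% and 18.3% of all genes were called. Among libraries that lay outside the set the adjusted p was 0.0519 for Rplp0 and 0.058 for Rps4x.

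The interaction asks whether the change on adding IL-13 differed with IL-17A present. No member was called by limma, where 0.338% of all genes were, 0.158% higher and 0.18% lower, and 46 members had an unadjusted p under 0.05, where 27% of all genes had. None was called with median-ratio scaling, where 0.698% of all genes were, or with the term, where 0.0144% were. With the term 1 member had an unadjusted p under 0.05, where 4.73% of all genes had. Weighting by gene span gave 19 members lower, where 8.11% of all genes were called, and voom on the estimated reads gave 21 lower, where 9.99% were. Without IL-33 and IL-17A replicate 1 there were 36 calls, where 21.9% of all genes were called, and without triple replicate 1 there were 33, where 16.4% were. The value of Rpl32 was -0.34 ± 0.08 (adjusted p = 0.0701) and that of Rpl22l1 was -0.96 ± 0.31 (adjusted p = 0.105).

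Of the paralog pairs, Rpl22l1, Rpl36al and Rpl7l1 rose with IL-33 and IL-13 over untreated and their partners did not pass the test. Rpl22 averaged 204 TPM with IL-33 and IL-13 and 209.5 TPM untreated (-0.03, adjusted p = 0.658). Rpl7l1 was 146 TPM with IL-33 and IL-13 and 133 TPM untreated (0.13, adjusted p = 0.0334, and 0.07 with the term, adjusted p = 0.472), and Rpl7 was 1607 TPM with IL-33 and IL-13 and 1643 TPM untreated (-0.03, adjusted p = 0.5). Rps27l, a p53 target, averaged 332 TPM with IL-33 and IL-13 and 344 TPM untreated (-0.05, adjusted p = 0.655), and the retrogene Rps27rt 60.9 TPM with IL-33 and IL-13 and 88.0 TPM untreated (-0.47, adjusted p = 0.104). Rpl39 was 567 TPM with IL-33 and IL-13 and 583 TPM untreated (-0.04, adjusted p = 0.676), and Rpl39l, known from testis, 1.90 TPM with IL-33 and IL-13 and 1.52 TPM untreated (0.18, adjusted p = 0.433). Reads of near-identical copies may be split between these genes and the -ps genes, since the counting of multi-mapping reads is not given in the sources used here. With the TPM of 109 copies added to that of their parent genes, 84 members were left. Of these, 33 rose and 5 fell with IL-33 and IL-13 over untreated, where 50.1% of all genes were called. Because TPM is scaled by span, a read in a short copy adds more than a read in a longer parent gene. This sum therefore does not restore split reads.

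Other genes of the ribosome and its assembly were described from lists. Fau and Rack1, which complete the small subunit, were not called with IL-33 and IL-13 over untreated, at -0.04 (adjusted p = 0.547) and 0.02 (adjusted p = 0.64). Of 33 ribosome assembly genes, 17 rose and 1 fell with IL-33 and IL-13 over untreated, with a median of 0.18, where 14.5% of all genes rose and 35.1% fell. With the term 12 rose and none fell, where 9.27% of all genes rose and 16.3% fell. Rrs1, which helps bring 5S rRNA into the large subunit, averaged 289 ± 13.7 TPM with IL-33 and IL-13 and 177 ± 4.37 TPM untreated (0.70 ± 0.07, adjusted p = 6.17e-06, and 0.55 with the term, adjusted p = 5.46e-04). Rcl1, needed for 18S rRNA maturation, averaged 7.09 TPM with IL-33 and IL-13 and 4.45 TPM untreated (0.57, adjusted p = 4.89e-06, and 0.53 with the term, adjusted p = 4.58e-04). Imp3 of the U3 particle changed by 0.87 (adjusted p = 0.00103), and by 0.43 with the term (adjusted p = 0.0938).

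With the triple combination over untreated, 8 of the 33 assembly genes rose and none fell, where 12.6% of all genes rose and 30.1% fell, among them Rcl1 at 8.32 TPM with the triple combination and 4.45 TPM untreated (0.78 ± 0.06, adjusted p = 2.05e-07, and 0.76 with the term, adjusted p = 7.55e-07). With the term 10 rose and none fell. On adding IL-13 to IL-33 and IL-17A, 11 of the 33 assembly genes rose and none fell, where 6.7% of all genes rose and 9.14% fell. They included the box C/D proteins Nop58 (0.43, adjusted p = 0.00469) and Nop56 (0.28, adjusted p = 0.0032) and the nucleolar GTPase Gnl3 (0.36, adjusted p = 0.0202). With the term 12 rose and none fell, and the values were 0.36 for Nop58, 0.26 for Nop56 and 0.28 for Gnl3 (adjusted p = 0.00409 to 0.0186). With IL-33 and IL-13 over untreated, where 14.5% of all genes rose and 35.1% fell (9.27% and 16.3% with the term), 3 of 14 RNA polymerase I genes rose and 1 fell, and with the term 1 rose. Of 78 mitochondrial ribosomal protein genes, 20 rose and 3 fell in that comparison, and 1 rose with the term. Of 107 tested pseudogenes of ribosomal proteins, 4 rose and 2 fell, and with the term 2 rose and 1 fell.

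The lists of translation factors and growth regulators were counted in the same comparison, with the same shares of all genes called. Of 18 elongation factors and other TOP mRNA genes, 5 rose and 7 fell, and with the term 3 rose and 2 fell. Hnrnpa1, an RNA-binding protein, was at 0.59 (adjusted p = 1.62e-04, and 0.35 with the term, adjusted p = 0.0118) and Nap1l1, a histone chaperone, at -0.30 (adjusted p = 0.00746, and -0.05 with the term, adjusted p = 0.586). Of 19 initiation factors, 4 rose and 7 fell, and with the term 1 rose and 1 fell. Eif6, which keeps the subunits apart, was at 0.49 (adjusted p = 5.47e-04, and 0.28 with the term, adjusted p = 0.0513) and Eif4a2 at -0.38 (adjusted p = 6.40e-05, and -0.27 with the term, adjusted p = 0.00542). Of 24 growth regulators, 3 rose and 12 fell, and with the term 1 rose and 6 fell. Without the term Ddit4, an inhibitor of mTORC1, changed by 0.90 (adjusted p = 0.00133), Mycl by -1.10 (adjusted p = 1.01e-05), the mTORC2 subunit Rictor by -0.56 (adjusted p = 1.07e-04) and the S6 kinase gene Rps6kb1 by -0.48 (adjusted p = 2.49e-04). With the term the values were 0.37 for Ddit4 (adjusted p = 0.113), -0.98 for Mycl (adjusted p = 0.0013), -0.38 for Rictor (adjusted p = 0.00859) and -0.32 for Rps6kb1 (adjusted p = 0.0223). Of 17 chaperones and quality control genes, 1 rose and 8 fell, and with the term 2 rose and 2 fell. Of 13 snoRNA host genes only Gas5 was called (-0.53, adjusted p = 1.21e-04), and with the term 2 fell, Gas5 among them (-0.54, adjusted p = 0.00447).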

How the data were processed

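The 15 libraries were NovaSeq RNA-seq of cultured mouse lung fibroblasts. The deposited values are TPM over the gene span, scaled by the authors to 1000000 per library. Reads were aligned with HISAT2 to mm10, per the submitters' processing notes. Which quantifier, strand setting and rule for multi-mapping reads were used was not known. TPM times span was a whole multiple of 1 unit (tolerance 0.03) for 90.2 to 91.3% of low values, from which reads per library were estimated.

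Genes at 1 TPM or more in 3 libraries (13887) were tested with limma 3.58.1 (trend, robust) in R 4.3.3 on log2(TPM + 1) over all 15 libraries, in 9 comparisons, with Benjamini-Hochberg adjustment over all tested genes and a threshold of 0.05. Fold changes on this scale understate changes of low genes. The code was tested on simulated data. The members, lists and alternatives were chosen with earlier results of these data known. Named members were up to 10 called per direction and comparison, the 5 highest and 5 lowest by TPM, paralog pairs and any member below the filter, and up to 4 called genes of each other list. Rpl5, Rps12, Rps28, Rpl29 and Rplp0 with the triple combination were named after their values were seen. A few genes that the rule names are not reported here. Alternatives changed the pseudocount, filter, scaling, weights, libraries and terms; the GC trend, voom on estimated reads and summing of copies were chosen after seeing the data. No 2 libraries of a group were alike within sampling noise. Replicates were numbered in accession order.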

Additional observations from a re-analysis of the deposited data

How the results depend on the processing

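No paired analysis was possible because the labels give no replicate numbers. Values are numbers of the 89 members called, and the cause of each change was not tested unless the construction shows it (fewer libraries). The share of all genes called moved with the setting too, so a count alone does not describe the members apart from other genes. For IL-33 and IL-13 over untreated that share was 49.6% in the main fit and 25.6% with the set term. For the interaction it was 0.338% in the main fit, 8.11% with span weights and 9.99% with voom. The counts below are given without that share, and describe only how the number of calls moved.

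For IL-33 over untreated (1 call), the count was 0 with median-ratio scaling, span weights, the compared groups alone, the libraries outside the set of 6, GC removal or voom on estimated reads, and 2 with the set term. For IL-33 and IL-17A over untreated (14 calls) it was 33 with median-ratio scaling, 36 with span weights, 35 with voom, 8 in the compared groups, 1 with the set term, 2 outside the set, and 0 with GC removal and the term. For IL-33 and IL-13 over untreated (41 calls) it was 65, 62 and 62 with median-ratio scaling, span weights and voom, 2 with the term, and 1 with GC removal and the term. For the triple combination over untreated (8 calls) it was 36, 38 and 38 under those 3 settings, 15 with GC removal, and 13 with GC removal and the term.

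For IL-17A added to IL-33 (1 call) the count was 2 with median-ratio scaling, 12 with span weights and 14 with voom, and 0 without the filter, in the compared groups, with the term, outside the set, or with GC removal and the term. For IL-13 added to IL-33 (36 calls) it was 58, 58 and 57 with median-ratio scaling, span weights and voom, and 0 with the term, with or without GC removal. For IL-17A added to IL-33 and IL-13 (6 calls) it was 3 without the filter, 10 with span weights, 12 with voom, 1 in the compared groups, and 0 with the term, inside the set, or with GC removal and the term. For IL-13 added to IL-33 and IL-17A (2 calls) it was 7, 10 and 10 with median-ratio scaling, span weights and voom, 4 outside the set, 5 with GC removal and the term, and 0 in the compared groups or inside the set. For the interaction (0 calls) it was 19 with span weights and 21 with voom.

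Leaving out 1 library at a time gave 0 to 1 calls for IL-33 over untreated, 2 to 45 for IL-33 and IL-17A over untreated, 19 to 34 for IL-33 and IL-13 over untreated, 5 to 9 for the triple combination over untreated, 0 to 25 for IL-17A added to IL-33, 14 to 23 for IL-13 added to IL-33, 0 to 22 for IL-17A added to IL-33 and IL-13, 0 to 12 for IL-13 added to IL-33 and IL-17A, and 0 to 36 for the interaction. For IL-33 over untreated the count was 0 without IL-33 replicate 1, IL-33 replicate 2 or untreated replicate 2. Without untreated replicate 3 the 1 call was an increase, where the call of the main fit was a decrease.

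The 60 results on named members had 1108 alternatives, of which 714 kept direction and side of the threshold, 369 lost the call and 25 changed sign. Median-ratio scaling gave Rps4x 0.011 (IL-33 and IL-17A over untreated), Rpl10 0.011, Rps7 0.025 and Rps3a1 0.056 (IL-33 and IL-13 over untreated), and Rpl27a 0.024, Rps3a1 0.025 and Rpl6 0.029 (triple combination over untreated). Span weights and voom gave Rps7 0.012 and 0.010 and Rps3a1 0.042 and 0.040 with IL-33 and IL-13, and Rpl27a 0.019 and 0.018, Rps3a1 0.020 and 0.019 and Rpl6 0.023 and 0.022 with the triple combination. GC removal gave Rps3a1 0.0011 with IL-33 and IL-13. With the set term Rpl28 was -0.015 with IL-33 and IL-13 over untreated and -0.044 for IL-13 added to IL-33. With GC removal and the term, Rps6 was 0.0054 and Rps7 0.026 over untreated, and Rpl28 -0.031 and Rps20 -0.0021 for IL-13 added to IL-33. Summing copies gave Rpl3 0.012 with IL-33 and IL-17A.

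Depth limits only the lowest members: core genes had a median of 3169 estimated reads per library, and Rpl26, the lowest of the core, had 123. Some tested members outside the core had fewer on average. These were Rpl10-ps3 with 47.9, Rps27rt with 27.6, Rpl9-ps6 with 22.3, Rpl39l with 8.19 and Rpl36a-ps1 with 2.80.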
